A study of Mus musculus with 3 samples.

Results

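The fibroblast growth factor (FGF) receptors and ligands examined here are 9 genes of the 32285 in the files, chosen by symbol: the receptors Fgfr1, Fgfr2, Fgfr3 and Fgfr4, the receptor-like gene Fgfrl1, and the ligands Fgf1, Fgf2, Fgf7 and Fgf18. Their messenger RNA was measured by droplet single-cell RNA sequencing in Alcam+Sca-1- bone lining cells (BLCs) of wild-type mice, cells that were released with collagenase from crushed bones after the marrow had been flushed out. Cells carrying CD45, Ter119 or CD31 were excluded in the sort. The 3 libraries form 1 group with replicates 1, 2 and 3, no treatment was given, and the labels state no strain, age, sex or number of animals. Each of the 9 symbols matched 1 row of every library, and levels are given in CPM (counts-per-million), the gene's share of the unique molecular identifiers (UMIs) summed over a group of cells.

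FGF ligands bind receptor tyrosine kinases together with heparan sulphate on the cell surface, and the bound receptors signal through adaptor proteins to the MAP kinase cascade. Sprouty proteins and dual-specificity phosphatases, which are targets of the pathway, dampen it again. In the skeleton FGFR1 and FGFR2 are known from osteoblasts and their precursors, FGFR3 restrains chondrocyte proliferation in the growth plate, and FGF18 and FGF2 act on both cartilage and bone.

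The libraries held 2606, 7172 and 10529 barcodes, and 18232 cells were analysed after filtering, with a median of 5614, 9704 and 5814 UMIs per cell in replicates 1, 2 and 3. Cells were placed in 15 classes by a gate on marker genes that contained none of the 9 genes, and 2622 cells (14.4%) entered no class. The classes were not what the tissue label, bone marrow, would name: growth plate-like (3753 cells), superficial cartilage-like (3295), Wif1 cartilage-like (2563), Wnt-active (1454, cartilage-like cells with targets of Wnt signalling) and hypertrophic-like cells (947) made up most of the gated cells. Osteoblast-like (902), CAR-like (773, named after the reticular stromal cells of marrow that are rich in Cxcl12 and Lepr), fibroblast-like (413), tendon-like (210) and cycling growth plate-like cells (209) were smaller. Despite the sort, 531 haematopoietic and 203 erythroid cells remained. Another 118 cells were gated as endothelial-like, 35 of them near a limit of the gate. They had a median of 1 of 6 endothelial and 4 of 9 growth plate markers, so the name is uncertain. Replicate 1 stood apart: it held 8 of the 3753 growth plate-like cells and 588 of the 773 CAR-like cells. Its growth plate-like sum was therefore left out, and every value for that class comes from replicates 2 and 3 (n = 2). Between libraries, 5, 8 and 24 cell barcodes were shared, depending on the pair.

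The marker lists also defined the gate, so a high sum in a list's own class was fixed by the gate and is no separate check. The summed level of the 6 hypertrophic markers was 54269, 52453 and 53382 CPM in hypertrophic-like cells against 862 and 1264 in growth plate-like cells. In CAR-like cells it was 3362, 9534 and 11687. The 7 CAR markers summed to 23786, 25060 and 24160 in CAR-like cells. The 9 growth plate markers summed to 64335 and 59895 in growth plate-like cells. In the other cartilage classes that sum was lower in replicate 1 than in replicates 2 and 3: 5107 against 17630 and 16832 in superficial cartilage-like cells, 5900 against 24290 and 22446 in Wnt-active cells, and 14562 against 48990 and 48474 in hypertrophic-like cells. In erythroid cells, which do not make cartilage matrix, the same markers still summed to 37.1, 1994 and 2382, so RNA of the abundant cartilage cells was present in other droplets of replicates 2 and 3.

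Sequence before the genes was available for 7 of the 9 genes, Fgfr1 and Fgf1 being the others. It was taken from RefSeq on build GRCm38.p6, as the 250 bases before and 50 bases after an annotated start. The first pair below is shown because both genes were highest in CAR-like cells, and the second because both were lower in osteoblast-like than in growth plate-like cells (values follow). Fgf2 was lower there as well, and its window is described but not printed. Capitals mark 1 of 5 motifs read on both strands: the GC box, spelled GGGCGG, the TATA box with the letters TATAAA, the LEF/TCF core, spelled CTTTGA, the E-box, which reads CACGTG, and the box that takes its name from its letters CCAAT. No motif overlapped another in these windows.
Fgfr2, chr7:130266759-130267058, minus strand: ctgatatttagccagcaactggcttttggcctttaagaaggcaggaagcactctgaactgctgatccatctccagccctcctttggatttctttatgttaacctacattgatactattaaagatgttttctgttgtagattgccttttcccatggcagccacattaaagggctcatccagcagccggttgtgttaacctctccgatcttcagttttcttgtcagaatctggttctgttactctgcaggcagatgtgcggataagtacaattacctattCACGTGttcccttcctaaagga
Fgf7, chr2:126034408-126034707, plus strand: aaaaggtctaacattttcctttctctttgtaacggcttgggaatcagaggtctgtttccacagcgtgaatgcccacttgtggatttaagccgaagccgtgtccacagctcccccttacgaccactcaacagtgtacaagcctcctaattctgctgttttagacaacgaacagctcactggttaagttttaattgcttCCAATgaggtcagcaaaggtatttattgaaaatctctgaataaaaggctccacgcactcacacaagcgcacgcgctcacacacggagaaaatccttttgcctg
Fgfr3, chr5:33721474-33721773, plus strand: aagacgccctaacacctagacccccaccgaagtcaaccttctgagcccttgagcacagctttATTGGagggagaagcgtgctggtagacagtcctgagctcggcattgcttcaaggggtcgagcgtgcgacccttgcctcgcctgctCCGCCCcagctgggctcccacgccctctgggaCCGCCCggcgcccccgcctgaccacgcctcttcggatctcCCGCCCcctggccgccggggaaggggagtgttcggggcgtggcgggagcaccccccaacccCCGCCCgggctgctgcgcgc
Fgfrl1, chr5:108693979-108694278, plus strand: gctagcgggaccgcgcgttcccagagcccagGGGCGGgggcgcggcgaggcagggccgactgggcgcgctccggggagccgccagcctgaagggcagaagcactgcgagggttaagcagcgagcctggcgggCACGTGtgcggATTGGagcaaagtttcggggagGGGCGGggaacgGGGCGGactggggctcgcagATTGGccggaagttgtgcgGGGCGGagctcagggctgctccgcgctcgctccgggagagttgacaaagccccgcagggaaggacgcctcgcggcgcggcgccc
The first pair was poor in G and C, with 43.67% and 45.67% of bases and 4 and 11 CpG dinucleotides. The second pair was rich in them, with 69.67% and 73.67% and with 26 and 37 CpG dinucleotides. The Fgf2 window had 62.67%, 24 CpG dinucleotides and 1 GC box. The median of all 32851 RefSeq mouse promoters of this length was 52.67% with 7 CpG dinucleotides. GC boxes were found in both windows of the second pair and in neither of the first, against 35.66% of all promoters. An E-box was found in the Fgfr2 and Fgfrl1 windows (7.15% of all promoters), and a CCAAT box in the Fgf7, Fgfr3 and Fgfrl1 windows (37.41%). A TATA box (13.62%) or a LEF/TCF core (16% of all promoters) was found in none of these 4 windows. These matches describe the letters only. The Fgfr2 and Fgfrl1 windows lie inside the gene spans given below, which come from another annotation (GENCODE), and so are not at the outermost start of either gene. RefSeq has a second Fgfr3 start, whose window (chr5:33722056-33722355) held GC boxes and no CCAAT box.

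Fgfr1, the receptor found most widely in mesenchymal cells, lies on chr8:25513654-25575718 (GRCm38, plus strand) and was the most frequently detected of the 9 genes, with 38517 UMIs in 11780 cells. It was highest in Wnt-active cells, at 642, 661 and 629.6 CPM in replicates 1, 2 and 3 (644 ± 15.8, SD, n = 3). Hypertrophic-like cells followed at 643, 497 and 517 (553 ± 78.8, n = 3). The replicate 1 values of these classes were alike, so their ranges overlapped. Osteoblast-like cells held 531, 396 and 362 (429.8 ± 89.6), a range that also overlapped that of hypertrophic-like cells. Tendon-like, CAR-like, Wif1 cartilage-like and fibroblast-like cells came next, with means of 331, 289, 283 and 273 and ranges that overlapped one another. Growth plate-like cells held 199 and 218 (208 ± 13.5, n = 2), superficial cartilage-like cells 190.2, 167 and 179 (179 ± 11.6, n = 3), and cycling growth plate-like cells 129.6 and 137 (n = 2). The erythroid background was 2.32, 17.1 and 6.68, below every library of these classes. With cells classed by an unsupervised clustering in place of the gate, Wnt-active cells stayed highest (mean 593). Osteoblast-like cells then came second (463), ahead of hypertrophic-like cells.

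**Figure D1:**
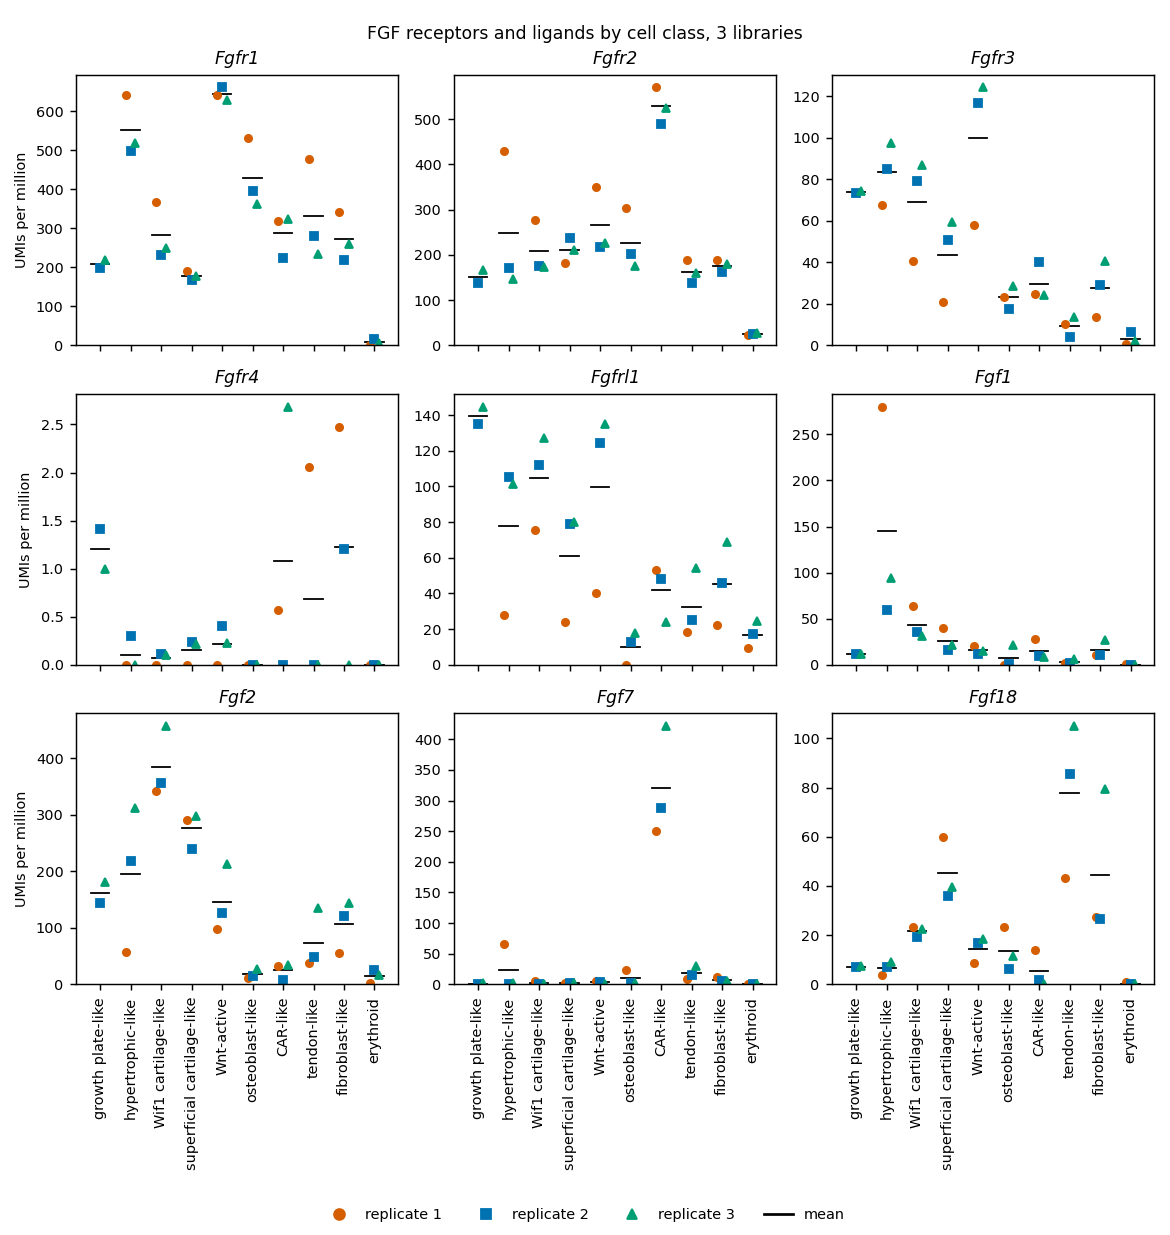
Level of each of the 9 genes (CPM, vertical axis, own scale per panel) in 9 cell classes and in erythroid cells as background. Points are the 3 libraries and bars their mean; growth plate-like cells have no point for replicate 1. Fgfr1 was highest in Wnt-active cells (mean 644), Fgfr2 and Fgf7 in CAR-like cells (529 and 320.1), Fgf2 in Wif1 cartilage-like cells (385) and Fgf18 in tendon-like cells (77.8).

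Fgfr2, whose splice forms respond to different sets of FGF ligands, had 26367 UMIs in 11148 cells. Its level in CAR-like cells was 571, 490.1 and 526 (529 ± 40.7, n = 3), and every one of these libraries was above every library of the other classes. It was 265 ± 73.6 in Wnt-active, 249 ± 157 in hypertrophic-like and 245 ± 36.2 in Schwann-like cells, and 152 ± 20.3 (n = 2) in growth plate-like cells. Cycling growth plate-like cells lay below the last, at 115 and 122, with no overlap. In hypertrophic-like cells replicate 1 stood apart, at 431 against 172 and 146. There, 17 of its 79 cells fell in the cluster of CAR cells of an unsupervised clustering and held 90 of the 217 Fgfr2 UMIs, whereas the other 62 cells stood at 299.96 CPM. When that clustering replaced the gate, CAR-like cells stayed highest (mean 535) and hypertrophic-like cells were the lowest lineage class (130). The erythroid background was 22.4, 25.6 and 26.7. In the annotation Fgfr2 spans chr7:130162451-133123350 (minus strand) and overlaps many other genes. Many of these lie on the same strand, among them Ate1, Nsmce4a, Oat and Ctbp2, so reads in those stretches cannot be assigned with certainty.

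Fgfr3, the receptor that slows growth plate chondrocytes (chr5:33721674-33737068, plus strand), had 9666 UMIs in 5880 cells and was highest in Wnt-active and hypertrophic-like cells. Its level was 57.8, 117 and 124 in Wnt-active cells (99.7 ± 36.4, n = 3) and 67.5, 84.9 and 97.5 in hypertrophic-like cells (83.3 ± 15.1). Growth plate-like cells held 73.3 and 74.2 (73.8 ± 0.616, n = 2), within the range of both. Superficial cartilage-like cells were lower, at 21.1, 50.7 and 59.4 (43.7 ± 20.1), a range that overlapped the 24.9, 40.4 and 24.1 of CAR-like and the 13.6, 28.9 and 40.5 of fibroblast-like cells. It was at 23.4, 17.7 and 28.5 in osteoblast-like and 10.3, 4.17 and 13.5 in tendon-like cells. The tendon-like values rested on 5, 2 and 4 UMIs. The erythroid background was 0.773, 6.41 and 2.23, so that 1 of the tendon-like libraries lay within it. In Wnt-active, Wif1 and superficial cartilage-like cells Fgfr3 was lowest in replicate 1, where the growth plate markers were lowest as well, and the part of that difference in the result was not tested.

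Fgfr4, the receptor known from liver and muscle, was nearly absent: 103 UMIs in 98 of 18232 cells. Growth plate-like cells held 62 of these UMIs, at 1.41 and 0.995 CPM. No UMI was seen in osteoblast-like, haematopoietic, erythroid, endothelial-like or pericyte-like cells. It was removed by the filter on low counts, so 8 of the 9 genes were tested below.

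Fgfrl1, a receptor-like protein that binds FGF without a kinase domain of its own (chr5:108692382-108706924, plus strand), had 15174 UMIs in 7471 cells. Growth plate-like cells were highest at 135 and 145 (139.7 ± 6.91, n = 2), followed by cycling growth plate-like cells at 115 and 130.02. Wif1 cartilage-like cells held 75.3, 112 and 127 (105 ± 26.6, n = 3) and Wnt-active cells 40.5, 124 and 135 (99.9 ± 51.7), so their replicates 2 and 3 reached or neared the growth plate-like values. Osteoblast-like cells were lowest of the 9 lineage classes at 0, 12.7 and 18.1 (10.3 ± 9.28, n = 3), against an erythroid background of 9.27, 17.1 and 24.5. The 0 comes from the 35 osteoblast-like cells of replicate 1. In replicates 2 and 3, 4 of the 8 and 4 of the 11 erythroid UMIs came from 1 cell each. Without the top cell of each sum these libraries stood at 8.96 and 16.0 in erythroid cells and at 12.1 and 15.3 in osteoblast-like cells. Over all analysed cells Fgfrl1 was at 22.2, 109 and 114, and Fgfr3 at 14.6, 68.1 and 73.7, both lowest in replicate 1, the library with few growth plate-like cells.

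The balance between receptors was compared as a ratio of UMIs within each library. Only its change between classes is described, since UMIs of different genes are not corrected for gene-specific capture. Fgfr2 per Fgfr1 was 1.87 ± 0.297 in CAR-like cells (range 1.62 to 2.20, n = 3) and 1.18 ± 0.232 in superficial cartilage-like cells. It was 0.725 ± 0.0504 in growth plate-like (n = 2), 0.522 ± 0.0445 in osteoblast-like and 0.412 ± 0.116 in Wnt-active cells. The 3 CAR-like ratios lay above every ratio of the other 8 lineage classes plotted, while haematopoietic (6.66 ± 4.69) and Schwann-like cells (2.24 ± 1.20) had higher means with a wide spread. Both rested on few Fgfr1 UMIs: 11, 17 and 46 in haematopoietic and 26, 8 and 10 in Schwann-like cells. Haematopoietic Fgfr1 levels (2.67, 7.62 and 22.0 CPM) overlapped the erythroid background. Fgfr3 per Fgfr1 was 0.355 ± 0.0201 in growth plate-like, 0.155 in hypertrophic-like and in Wnt-active cells, and 0.0558 in osteoblast-like cells.

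**Figure D2:**
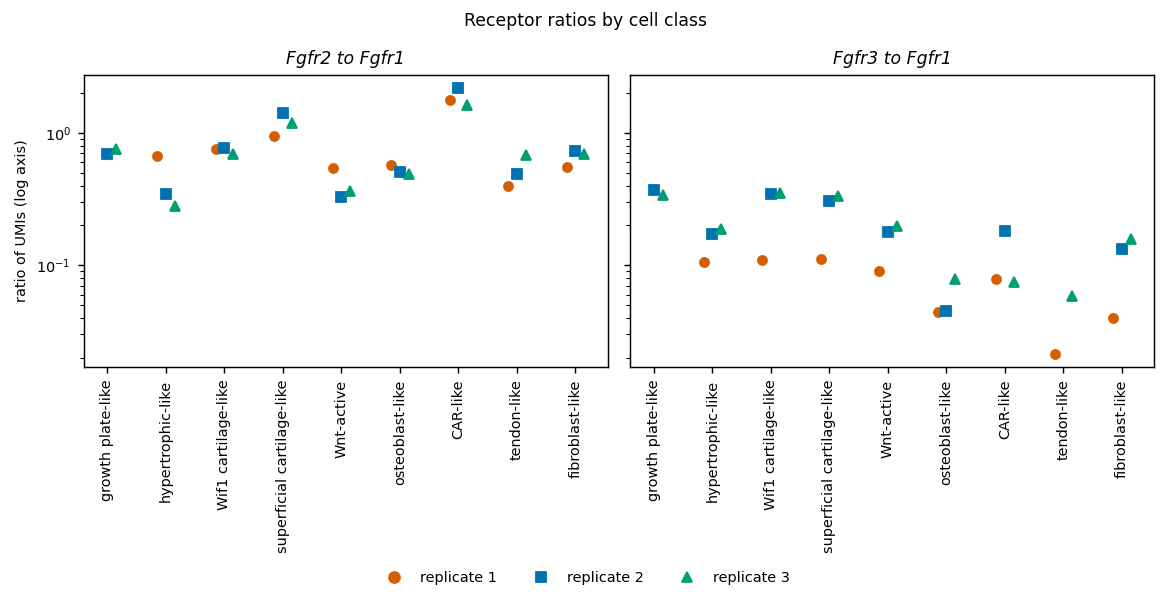
Ratio of UMIs of Fgfr2 to Fgfr1 (left) and of Fgfr3 to Fgfr1 (right), log axis, with 1 point per library and cell class; a library with 3 or fewer UMIs of either gene has no point. Of the 9 classes plotted, the Fgfr2 to Fgfr1 ratio was highest in CAR-like cells (mean 1.87), and the Fgfr3 to Fgfr1 ratio was higher in growth plate-like cells (mean 0.355) than in osteoblast-like cells (mean 0.0558).

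Of the ligands, Fgf2, which lacks a classical secretion signal and is stored on heparan sulphate in the matrix, had 29868 UMIs in 8944 cells and was highest in Wif1 cartilage-like cells at 342, 357 and 457 (385 ± 62.5, n = 3). Superficial cartilage-like cells followed at 292, 239 and 298 (277 ± 32.3), below every Wif1 cartilage-like library. These classes were not cleanly separated, since cells of both had a median of 4 of 6 superficial cartilage markers. Schwann-like cells stood at 252 ± 47.9, hypertrophic-like cells at 57.5, 218 and 313, growth plate-like cells at 144 and 180.2 (162 ± 25.8, n = 2) and Wnt-active cells at 98.3, 126 and 213. The hypertrophic-like range overlapped the others, while both growth plate-like and all Wnt-active libraries lay below the Schwann-like ones, which ran from 218 to 307. Osteoblast-like cells held 11.7, 14.9 and 27.6 (18.0 ± 8.40), against erythroid values of 3.09, 25.6 and 15.6. In replicate 2 the top cell held all 12 erythroid UMIs, and in replicate 3 it held 3 of 7. Without the top cell of each sum, replicates 2 and 3 stood at 0 and 9.11 in erythroid cells. The same libraries then stood at 11.4 and 23.9 in osteoblast-like cells. With cells classed by unsupervised clusters in place of the gate, hypertrophic-like cells became the highest class for Fgf2, at a mean of 471. Fgf2 (chr3:37348346-37410108, plus strand) overlaps Nudt6 and Fgf2os on the opposite strand. Whether the counting used strand is not given in the sources used here, so reads of these genes cannot be told apart with certainty.

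Fgf7, also called keratinocyte growth factor, which signals to epithelia through a splice form of FGFR2 had 1475 UMIs in 602 cells. CAR-like cells held 251, 288 and 421 (320.1 ± 89.5, n = 3), which was 89.5%, 62.2% and 64.6% of all Fgf7 UMIs of replicates 1, 2 and 3. The highest value of any other class was 65.5. Growth plate-like cells held 0.806 and 1.34, superficial cartilage-like cells 1.70, 1.55 and 1.55, tendon-like cells 8.21, 14.6 and 30.5, and osteoblast-like cells 23.4, 2.83 and 2.85. The only cartilage sum that stood out was replicate 1 of hypertrophic-like cells, at 65.5 against 0 and 2.39. Of its 33 UMIs, 7 came from the 17 cells in the CAR cluster and 9 from a single other cell. Fgf7 (chr2:126034658-126091185, plus strand) overlaps Fam227b on the opposite strand. Over whole libraries, Fgf7 stood at 49.4, 3.33 and 4.02, with replicate 1 being the library rich in CAR-like cells.

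Fgf1, a ligand of all FGF receptors, had 3280 UMIs in 1756 cells and was highest in hypertrophic-like cells at 279.7, 59.9 and 94.2 (145 ± 118, n = 3). In replicate 1, 95 of 141 UMIs came from 1 cell, without which the level was 94.8. All 3 libraries lay above both growth plate-like libraries, at 12.2 and 12.1. Wif1 cartilage-like cells held 63.7, 36.1 and 31.4 and superficial cartilage-like cells 40.5, 16.6 and 21.5. By mean, the lowest lineage class was tendon-like, at 2.05, 2.08 and 6.77. Osteoblast-like cells ran from 0 to 21.9 (mean 7.76). In their replicate 3, a single cell held 19 of the 23 UMIs, without which the level was 3.82. Without replicate 3, osteoblast-like cells were lowest, at a mean of 0.708. Outside the lineage classes, the 64 pericyte-like cells of replicate 1 stood at 113, with no other library to compare.

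Fgf18, a ligand from the tissue around bone that acts on chondrocytes (chr11:33117430-33147400, minus strand), had 2378 UMIs in 1520 cells. Tendon-like cells were highest at 43.1, 85.4 and 105 (77.8 ± 31.6, n = 3). Superficial cartilage-like cells held 59.9, 35.8 and 39.7 (45.1 ± 12.9) and fibroblast-like cells 27.2, 26.5 and 79.5 (44.4 ± 30.4), and these classes overlapped one another. Wif1 cartilage-like cells were lower, at 23.2, 19.4 and 22.5 (21.7 ± 2.03). Growth plate-like cells held 6.89 and 7.26 and hypertrophic-like cells 3.97, 6.92 and 8.95. CAR-like cells, in which Fgf7 was highest, held 13.9, 1.92 and 0.

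Because depth differed between classes, each cell was also thinned to 1000 UMIs, and 549 shallower cells were left out. Fgfr1 was then found in 43.2% of Wnt-active, 42.4% of hypertrophic-like and 31.5% of osteoblast-like cells against 2.40% of erythroid cells, as means over libraries. The unthinned share in osteoblast-like cells was 59.2%, at a median of 1915.5 UMIs per cell, against 79.2% in growth plate-like cells at a median of 12151. Thinning turned this order round, with 20.0% in growth plate-like cells. Fgfr2 was found in 36.5% of CAR-like cells (76.8% unthinned, median 5644 UMIs) against 4.26% of erythroid cells (18.7% unthinned, median 5565). Fgf7 was found in 23.0% of CAR-like cells (54.2% unthinned) against 0.388% of erythroid cells, and Fgf2 in 26.5% of Wif1 cartilage-like cells against 1.58%. Fgf18 reached 6.02% of tendon-like and 4.0% of superficial cartilage-like cells.

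**Figure D3:**
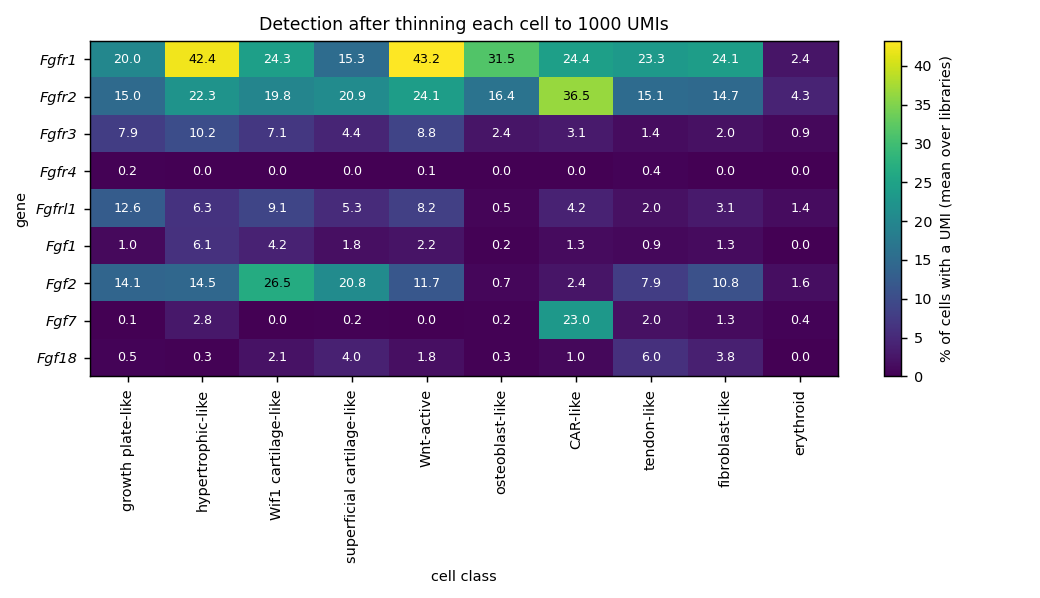
Share of cells with at least 1 UMI (percent, mean over libraries) after each cell was thinned to 1000 UMIs, for the 9 genes (rows) in 10 cell classes (columns). Fgfr1 was found in 43.2% of Wnt-active cells, Fgfr2 in 36.5% and Fgf7 in 23.0% of CAR-like cells, and erythroid cells, the background, stayed at or below 4.26% for each gene.

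Differences were then tested between classes, on sums of UMIs per library and class, with edgeR's quasi-likelihood test and a library term. Log2 fold changes are given with their standard errors, and p-values were adjusted over all 14330 genes tested. The study's methods call the samples independent without saying whether they came from separate animals, so these p-values measure only the spread between these libraries, and in bulk sums a change in level per cell cannot be told apart from a change in the share of expressing cells. The 4 comparisons with growth plate-like cells share those 2 sums, which makes their results related. Leaving out replicate 2 or 3 leaves growth plate-like cells with 1 sum, whose spread is then taken from the other classes.

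Hypertrophic-like cells, the enlarged chondrocytes that precede bone, differed from growth plate-like cells in Fgf1, Fgfr1 and Fgf7, all higher. The background was 20.5% of genes called, 1423 higher and 1517 lower (1884 and 1167 with relative log expression, RLE, scaling). The RLE scaling moved the median of all genes from -0.04 to 0.12 on the log2 scale, so values relative to that median are also given. Fgf1 was 3.02 ± 0.46 higher (adjusted p = 1.06e-05, edgeR; 3.06 relative to the median), in 3 of 3 hypertrophic-like libraries, and it remained called under all 12 alternatives. Fgfr1 was 1.42 ± 0.47 higher (edgeR adjusted p = 0.0281; 1.46 relative to the median). That call was lost without the library term (adjusted p = 0.0716, edgeR) and without replicate 2 or 3 (0.395 and 0.446). Fgf7 was 2.56 ± 0.81 higher (edgeR adjusted p = 0.0219; 2.60 relative to the median), with replicate 1 at 65.5 and the others at 0 and 2.39. Without replicate 1 it was 0.32 (adjusted p = 0.745, edgeR), and with unsupervised clusters it was -1.28 (adjusted p = 0.484). The Fgf7 call was also lost with DESeq2 (adjusted p = 0.0919) and, in edgeR, without replicate 2 or 3 (adjusted p = 0.17 and 0.229). Fgfr2, Fgfr3, Fgfrl1, Fgf2 and Fgf18 were not called, with values of 0.54, 0.51, -0.48, 0.50 and 0.15. Markers of other classes were also present in hypertrophic-like cells: osteoblast markers summed to 12757, 4037 and 4032 CPM against 261 and 276 in growth plate-like cells, and Wif1 cartilage markers to 1974, 5961 and 5915 against 407 and 655. Unsupervised clustering put 403 of the 947 cells in its hypertrophic-like cluster, 293 in a Wif1 cartilage-like and 37 in the osteoblast-like cluster. The part of these cells in the result was not tested.

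Superficial cartilage-like cells, which line joints and make lubricin, were higher than growth plate-like cells in Fgf18 and Fgf2, 2 of 8 genes against a background of 29.5%. Fgf18 was 2.80 ± 0.42 higher (edgeR adjusted p = 2.82e-06) in 3 of 3 superficial cartilage-like libraries, and it remained called under all 12 alternatives. Fgf2 was 1.27 ± 0.47 higher (edgeR adjusted p = 0.0397), but 0.84 without the library term (adjusted p = 0.368). Fgf2 also lost the call without replicate 2 or 3 (edgeR adjusted p = 0.24 and 0.356). Fgfrl1 missed the threshold at -0.83 ± 0.33 (edgeR adjusted p = 0.0529), and it passed under 4 of the 12 alternatives. Wif1 cartilage markers summed to 24455, 25285 and 26587 CPM in superficial cartilage-like cells. Unsupervised clustering put 1821 and 455 of the 3295 cells in superficial cartilage-like clusters. It put 196 and 434 in Wif1 cartilage-like clusters and 271 in a fibroblast-like cluster. Whether this overlap shaped the Fgf18 and Fgf2 results was not tested.

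Wnt-active cells were higher than growth plate-like cells in Fgfr1 alone, by 1.39 ± 0.47 (edgeR adjusted p = 0.0497; 1.43 relative to the median), 1 of 8 genes against a background of 10.9%. Over all genes, 806 were higher and 751 lower (1195 and 523 with RLE scaling, which moved the median from -0.04 to 0.12). Unsupervised clustering put 1217 of the 1454 Wnt-active cells in its Wnt-active cluster, together with 883 of the 3753 growth plate-like cells. Wnt-active cells had a median of 2 of 5 markers of their own and 7 of 9 growth plate markers. The part of this overlap in the result was not tested. For Fgfr1, all 3 Wnt-active libraries were at 629.6 CPM or above and both growth plate-like libraries at 218 or below. The call was lost without the library term (edgeR adjusted p = 0.113) and without replicate 2 or 3 (0.658 and 0.644). Over all genes, 3 and 0 were called in those last settings.

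Osteoblast-like cells, the bone-forming lineage, were lower than growth plate-like cells in Fgfrl1, Fgf2 and Fgfr3. The background was 39.4% of genes called, 2284 higher and 3355 lower (3221 and 2240 with RLE scaling, which moved the median from -0.25 to 0.10). Fgfrl1 was -3.27 ± 0.42 (edgeR adjusted p = 2.39e-07, and -3.02 relative to the median). Fgf2 was -2.99 ± 0.54 (edgeR adjusted p = 3.67e-05, and -2.74 relative to the median). Both were lower in 3 of 3 osteoblast-like libraries than in the growth plate-like ones, which lack replicate 1. They were called under all 12 alternatives, with ranges of -3.52 to -2.18 for Fgfrl1 and -3.35 to -1.77 for Fgf2. Their osteoblast-like levels overlapped the erythroid background given above. Fgfr3 was -1.61 ± 0.35 (edgeR adjusted p = 0.000331; -1.35 relative to the median) and lost the call without replicate 2 or 3 (0.174 and 0.151). Fgfr1 was 0.94 ± 0.47 (edgeR adjusted p = 0.11), and 1.34 with RLE scaling (adjusted p = 0.0297). Osteoblast-like cells were shallow, and the dissociation response genes summed to 16028, 10054 and 12536 CPM in them against 7609 and 6228 in growth plate-like cells. The part of either in these differences was not tested.

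**Figure D4:**
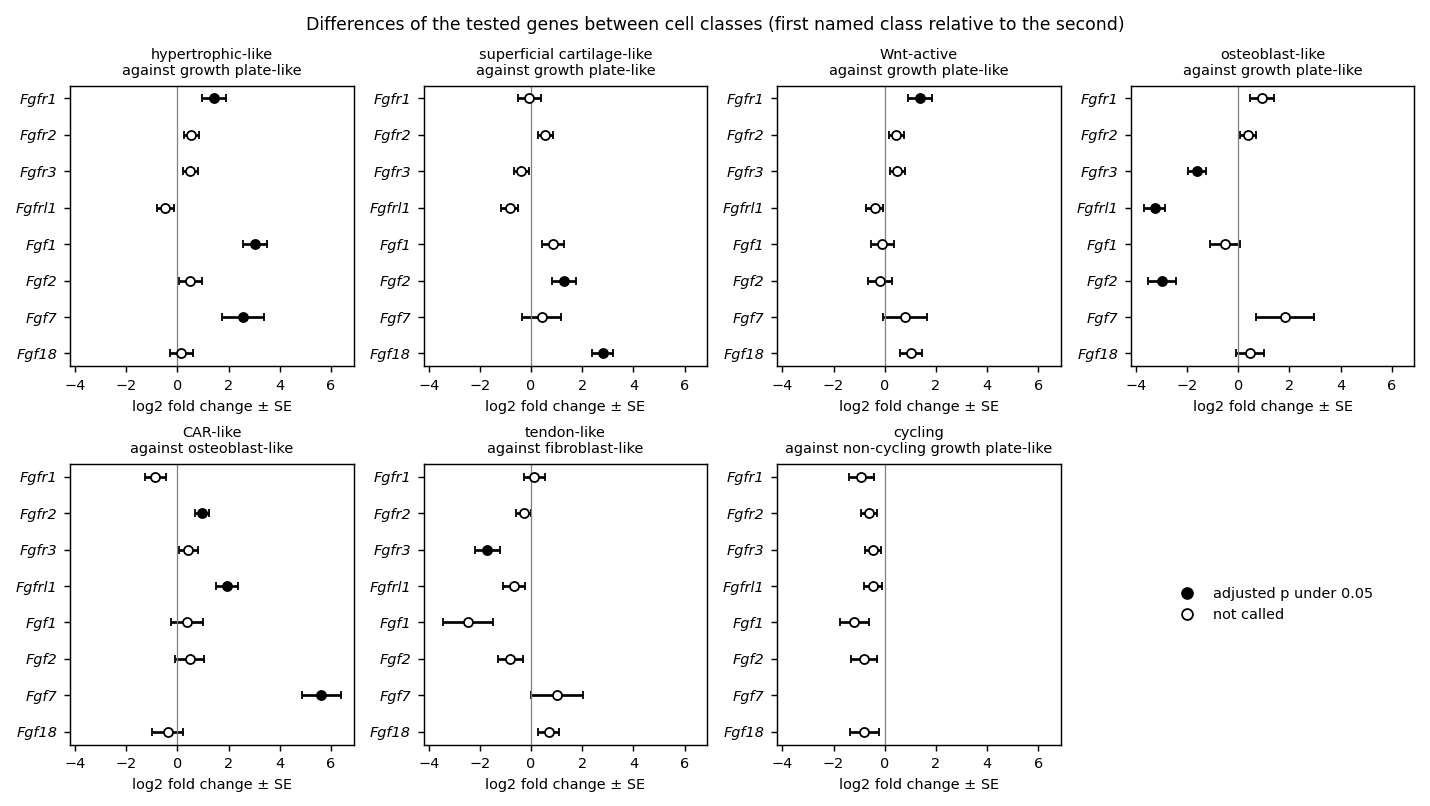
Log2 fold change with its standard error (horizontal axis) of the 8 tested genes in 7 comparisons of cell classes, from edgeR's quasi-likelihood test; filled points have an adjusted p under 0.05. Fgf7 was higher in CAR-like than in osteoblast-like cells (5.62 ± 0.76) and had 11 UMIs in the latter. Fgfrl1 was lower in osteoblast-like than in growth plate-like cells (-3.27 ± 0.42). No gene passed between cycling and non-cycling growth plate-like cells. Fgf7 has no point in that comparison, with 0 UMIs in both cycling libraries.

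CAR-like cells were higher than osteoblast-like cells in Fgf7, Fgfrl1 and Fgfr2, against a background of 23.1% (1943 higher and 1373 lower, or 1698 and 1700 with RLE scaling, which moved the median from 0.14 to 0.01). Fgf7 was 5.62 ± 0.76 higher (edgeR adjusted p = 5.12e-07, and 5.48 relative to the median) in 3 of 3 libraries. It ranged from 4.94 to 6.38 over the 12 alternatives, all of which called it. The osteoblast-like side rested on 11 Fgf7 UMIs over the 3 libraries, so the size of this fold is uncertain. Fgfr2 was 0.95 ± 0.27 higher (edgeR adjusted p = 0.00867; 0.81 relative to the median) in 3 of 3 libraries, and it lost the call without replicate 2 or 3 (0.218 and 0.348). Fgfrl1 was 1.93 ± 0.44 higher (edgeR adjusted p = 0.00114; 1.79 relative to the median). It fell to 1.26 without the library term (adjusted p = 0.191, edgeR) and to 0.80 without replicate 1 (0.112), and it lost the call without replicate 2 as well (0.0714). Fgfr1 was -0.86 ± 0.41 (edgeR adjusted p = 0.136).

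Tendon-like cells differed from fibroblast-like cells in Fgfr3 alone, 1 of 8 genes against a background of 4.7%. It was -1.71 ± 0.50 (edgeR adjusted p = 0.0401) on the 5, 2 and 4 UMIs given above, and 7 of the 12 alternatives lost the call, with adjusted p up to 0.884. Fgf18 was 0.69 ± 0.42 (edgeR adjusted p = 0.5). Between cycling and non-cycling growth plate-like cells, edgeR called 0 of 8 genes against a background of 7.84% (737 higher and 387 lower, or 889 and 226 with RLE scaling, which moved the median from -0.22 to -0.06), and DESeq2 called 0 as well. At an unadjusted p under 0.05, edgeR had 1 of them, Fgf1, at -1.18 ± 0.57. Every tested gene had a value below 0, from -0.46 for Fgfrl1 to -1.18 for Fgf1, with no fold given for Fgf7. Without replicate 1, which gave no sum of either class but enters the shared spread, Fgf7 passed, and so did Fgfr1, Fgfr2, Fgfr3, Fgfrl1, Fgf1 and Fgf2, at -0.83, -0.54, -0.38, -0.38, -1.11 and -0.72. In that setting 4297 of all 13794 genes tested were called, 1742 higher and 2555 lower.

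Of a list of 16 targets and feedback inhibitors of FGF signalling, 15 were tested. CAR-like cells were higher than osteoblast-like cells in 6 of 15 and lower in 0, with a median log2 difference of 0.81 against 0.14 for all genes. All counts of list genes here and below stand beside the shares of all genes called: 20.5% in hypertrophic-like, 29.5% in superficial cartilage-like, 10.9% in Wnt-active and 39.4% in osteoblast-like against growth plate-like cells, 23.1% in CAR-like against osteoblast-like, 4.7% in tendon-like against fibroblast-like and 7.84% in cycling against non-cycling cells. Spry1, an inhibitor of receptor tyrosine kinase signalling, was at 216, 223 and 182 CPM in CAR-like and at 0, 12.7 and 7.60 in osteoblast-like cells (3.93 ± 0.49, edgeR adjusted p = 1.02e-07). Il17rd, also known as Sef and likewise an inhibitor, was at 47.5, 25 and 24.1 in CAR-like cells and had 0, 0 and 2 UMIs in osteoblast-like cells. Dusp4, a phosphatase that switches off MAP kinases, was at 34.5, 26.9 and 21.5 in CAR-like cells and had 0, 0 and 1 UMI in osteoblast-like cells, so no fold is given for these 2 genes. Tendon-like cells were higher than fibroblast-like cells in Il17rd (2.26 ± 0.50, edgeR adjusted p = 0.00452) and Spry4 (1.61 ± 0.47, 0.0414) and lower in Phlda1 (-1.89 ± 0.54, 0.0329), 3 of 15 genes.

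Against growth plate-like cells the same list moved in both directions: 5 higher and 2 lower in hypertrophic-like, 4 and 3 in superficial cartilage-like, 4 and 4 in osteoblast-like and 1 and 1 in Wnt-active cells. The medians were 0.06, 0.24, 0.13 and 0.14, against -0.04, 0.05, -0.25 and -0.04 for all genes. Ccnd1, the cyclin D1 gene, which has many inputs besides FGF, was at 235 and 265 CPM in growth plate-like cells. It was lower in all 4 classes, by -4.96 ± 0.43 in superficial cartilage-like cells (edgeR adjusted p = 7.98e-11), -3.72 ± 0.46 in osteoblast-like, -3.70 ± 0.43 in hypertrophic-like and -1.97 ± 0.38 in Wnt-active cells. Etv5, a transcription factor induced by FGF, was at 7.02 and 7.11 in growth plate-like cells and at 28.9, 25.8 and 22.6 in Wnt-active cells (1.61 ± 0.32, edgeR adjusted p = 0.0011). Spry1 was scarce in growth plate-like cells at 0.336 and 0.696. It was called higher in hypertrophic-like cells (3.71 ± 0.62, edgeR adjusted p = 3.93e-05), where replicate 1 stood at 37.7 against 3.31 and 3.28, and with unsupervised clusters the value was -0.27. It was also higher in superficial cartilage-like (3.94 ± 0.54, edgeR adjusted p = 6.21e-07) and osteoblast-like cells (4.08 ± 0.70, 1.58e-05), and the osteoblast-like call was lost without replicate 2. Dusp6, a phosphatase of MAP kinases, was lower in cycling than in non-cycling growth plate-like cells (-2.0 ± 0.58, edgeR adjusted p = 0.0258), at 2.23 and 2.65 against 7.56 and 8.90, the only one of the 15 that was called there.

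**Figure D5:**
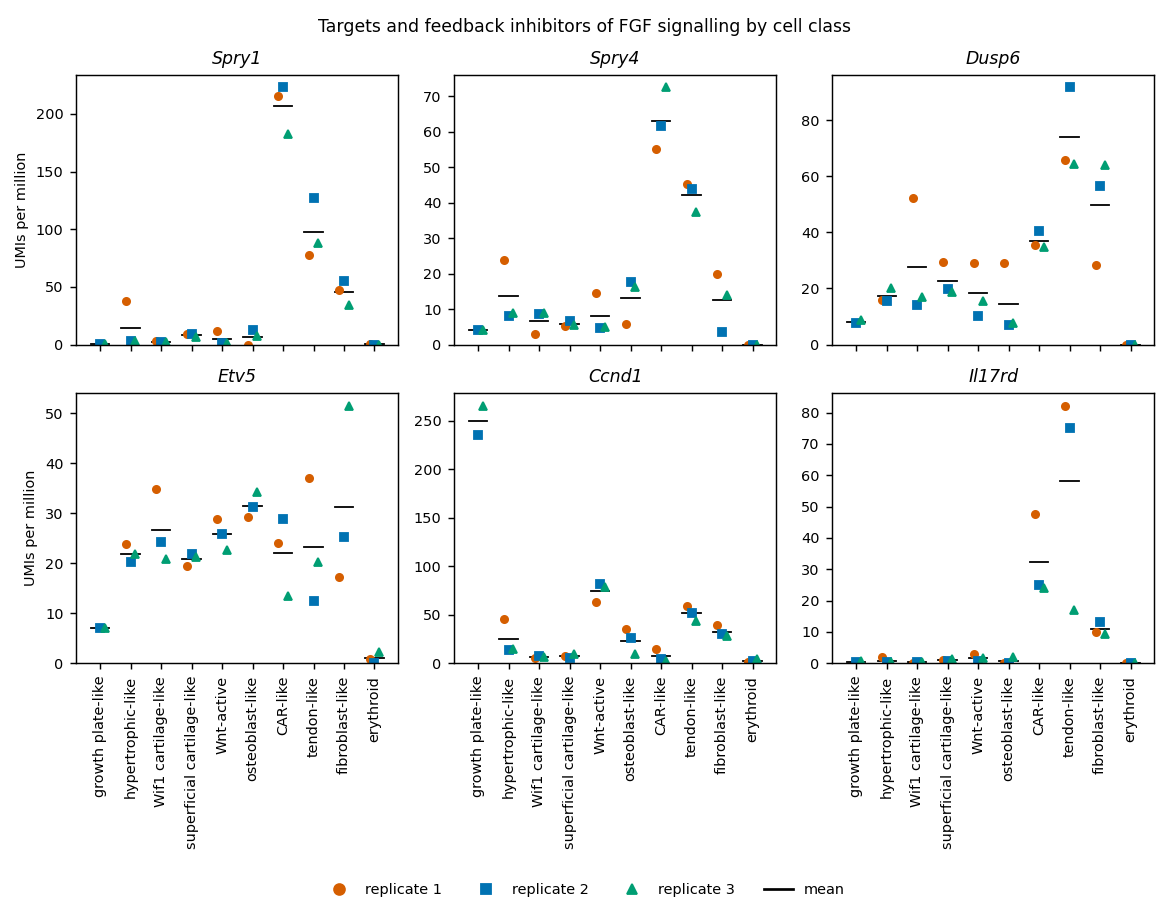
Level (CPM, vertical axis, own scale per panel) of 6 targets and feedback inhibitors of FGF signalling in 9 cell classes and erythroid cells. Points are the 3 libraries and bars their mean. Spry1 reached 216, 223 and 182 in CAR-like cells, Dusp6 was highest in tendon-like cells (65.7, 91.7 and 64.3) and Ccnd1 was highest in growth plate-like cells (235 and 265).

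Enzymes that make or trim heparan sulphate, the co-factor of FGF binding, included a gene that was higher in most comparisons. Sulf1, a sulphatase that removes sulphate groups from it at the cell surface, was higher than in growth plate-like cells in hypertrophic-like (2.46 ± 0.29, edgeR adjusted p = 1.72e-07), superficial cartilage-like (2.06 ± 0.29, 8.14e-07), Wnt-active (1.10 ± 0.28, 0.0105) and osteoblast-like cells (0.77 ± 0.31, 0.0447). It was higher in CAR-like than in osteoblast-like cells (2.11 ± 0.29, edgeR adjusted p = 5.29e-07), and lower in cycling than in non-cycling growth plate-like cells (-2.07 ± 0.38, 0.000131). Sulf2, its close relative, was 2.87 ± 0.38 higher in superficial cartilage-like cells (edgeR adjusted p = 3.41e-07), at 32.7, 60.8 and 52.1 against 8.0 and 7.86 CPM. Of the 9 tested enzymes, 3 were higher and 2 lower in hypertrophic-like, 2 and 3 in superficial cartilage-like, 1 and 0 in Wnt-active, 1 and 3 in osteoblast-like (each against growth plate-like) and 4 and 0 in CAR-like against osteoblast-like cells. None was called between tendon-like and fibroblast-like cells.

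Co-receptors and heparan sulphate proteoglycans, 13 of 19 tested, were called lower more than higher in superficial cartilage-like cells (0 higher, 5 lower, median -1.14 against 0.05 for all genes). There Gpc1, a glypican, was -2.99 ± 0.39 (edgeR adjusted p = 2.73e-07) and Flrt3, a membrane protein that binds FGF receptors, -3.30 ± 0.42 (2.5e-07). CAR-like cells were higher than osteoblast-like cells in 2 and lower in 4 of the 13. Sdc1, the syndecan 1 gene, was 4.64 ± 0.86 higher (edgeR adjusted p = 7.91e-05), at 135, 271 and 341 against 11.7, 6.37 and 6.65 CPM, and Sdc3 was -2.85 ± 0.43 (4e-06). Flrt3 was among the lower genes, with 1, 0 and 0 UMIs in CAR-like cells against 11.7, 8.50 and 12.4 CPM in osteoblast-like cells, so no fold is given. In osteoblast-like cells 3 were higher and 3 lower than in growth plate-like cells, among them Gpc6 (-3.44 ± 0.76, edgeR adjusted p = 0.000476) and Flrt2 (2.30 ± 0.56, 0.00128). Hypertrophic-like and Wnt-active cells each had 1 higher and 2 lower, tendon-like against fibroblast-like cells 1 and 1, and cycling cells 0 and 0.

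Of the 18 other FGF ligand genes, 7 passed the filter on low counts. Of these, 3 were called higher in hypertrophic-like cells (Fgf9, Fgf13 and Fgf14), 2 in superficial cartilage-like (Fgf9 and Fgf11), 2 in osteoblast-like (Fgf11 and Fgf13) and 1 in Wnt-active cells (Fgf12), each against growth plate-like cells, with none lower. Fgf11, Fgf12, Fgf13 and Fgf14 encode intracellular proteins that are not secreted. Fgf12 was at 14.5, 10.0 and 13.5 CPM in Wnt-active and at 1.08 and 1.14 in growth plate-like cells (3.23 ± 0.57, edgeR adjusted p = 0.000478). Fgf13 was far higher in replicate 1 than in the other libraries, at 196, 11.4 and 7.75 in hypertrophic-like cells (3.23 ± 0.64, edgeR adjusted p = 0.000386). Fgf9, a secreted ligand, was at 1.02, 2.27 and 5.0 in superficial cartilage-like cells against 0.134 and 0.199, from 4 UMIs in each growth plate-like library (3.80 ± 0.78, edgeR adjusted p = 0.000383). Of 18 tested adaptor and kinase genes that relay the signal, 5 were higher and 4 lower in osteoblast-like cells, while 4 or fewer were called in each other comparison. Map2k2, a kinase of the MAP kinase cascade, was lower in CAR-like than in osteoblast-like cells (-0.75 ± 0.26, edgeR adjusted p = 0.0324).

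The dissociation response, 11 genes induced by enzymatic digestion, was recorded beside these results. Of its genes, 3 were called higher and 0 lower in hypertrophic-like cells, 1 and 0 in Wnt-active cells, 3 and 1 in osteoblast-like cells, and 0 in superficial cartilage-like cells, each against growth plate-like cells. CAR-like cells had 0 higher and 4 lower than osteoblast-like cells. The summed level was 10975, 9167 and 8416 CPM in hypertrophic-like and 11673, 9992 and 10274 in Wnt-active cells, both above the 7609 and 6228 of growth plate-like cells. Fgfr1 was higher in both of these classes. The part of this response in the result was not tested.

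Across the 41 sums of library and class, the gene whose log2 level was most like that of Fgfr1 was Egr1, an immediate early gene of the dissociation list (Pearson r = 0.93), followed by Colec12 (0.91), Neo1, Rbfox2 and Lrp1 (0.90 each). These correlations describe sums that share libraries and depth, and they carry no test. Fgfr2 was most like Baiap2 (0.91), Rbms3, Cdk14, Fndc3b and Ptpn14. Fgfr3 was most like Sdk2 (0.91), Mdfi, Tiam2, Papss2 and Sox9, the last encoding the chondrocyte transcription factor SOX9 (0.88). Fgfrl1 was most like Pitx1 (0.87), Srpx2, Wnt11, Nrk and Mras. Among the ligands, Fgf7 was most like Cyp1b1 (0.96), Ggt5, Prr16, Ebf3 and Vegfc, of which Ebf3 is a CAR marker of the gate. Fgf2 was most like Prnp (0.93), Hbegf (0.92), Enho, S100b and Baiap2l1. Fgf18 was most like Angptl7 (0.86), Thbs4 (0.84, a tendon marker of the gate), Il11ra1, Mtmr11 and Medag. Fgf1 had the weakest likeness, with Cnnm4 first at 0.72, then Mef2a, Trim47, Bmp2 and Col10a1 (0.68), the last a hypertrophic marker of the gate.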

How the data were processed

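Single-cell libraries of the 3 replicates were analysed from the raw UMI counts that the authors deposited as gene-by-cell matrices, made by them with Cell Ranger 7.1.0 on mouse build mm10 (GRCm38), per the submitters' processing notes. The matrices hold 20307 barcodes, fewer than the cell total the study states. The totals were 20985636, 79905165 and 69890252 UMIs. Barcodes needed 200 or more genes and a mitochondrial share no higher than 20% (79, 447 and 299 failed), and those with the highest Scrublet scores, 0.8% per 1000 cells, were removed as doublets (51, 362 and 837), because the automatic threshold marked only 42, 1 and 0. Cells were classed by mean scaled marker level with 15 marker lists (cut 0.25, lead over the next class 0.05), and 1755 gated cells lay within 0.05 of a limit. No member or listed FGF pathway gene took part. Leiden clusters (scanpy 1.11.5, leidenalg 0.10.2, Python 3.11.15, 20 clusters) served as an alternative.

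UMIs were summed per library and class with at least 20 cells (41 sums) and fitted in edgeR 4.0.16 (R 4.3.3) with TMM scaling, filterByExpr and the terms class and library, using the quasi-likelihood test with Benjamini-Hochberg adjustment over 14330 genes at 0.05. The replicate number pairs the classes, since classes with the same number come from the same cell suspension. DESeq2 1.42.0 was an alternative. The standard error is the log2 fold change divided by the square root of F. The procedure was tested on simulated counts. Folds were withheld for genes with 0 to 3 UMIs in every library of a class, and such limits cover counting error only. Other folds can rest in part on such counts, as for Fgfr3 in tendon-like and Fgfrl1 in osteoblast-like cells.

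Named were all 9 genes, genes out of the 3 called with the largest change per pathway list and comparison (not all of these are printed), and for likeness the 5 genes with the highest Pearson correlation of log2 (CPM plus 10) among genes with a mean of at least 10. Further genes in the text were chosen after their values were seen. A gene that the rule names among the signal relay genes is not reported here. The members and lists were chosen with earlier results of these data known. Promoters are from RefSeq, and gene positions from GENCODE vM21.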

Additional observations from a re-analysis of the deposited data

How the results depend on the processing

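Of 672 values of the 8 tested genes over 7 comparisons and 12 alternatives, 569 kept their direction and side of the threshold, 47 gained a call, 27 lost one and 29 changed sign. All alternatives were planned. The number of called genes depended most on which library was left out. Leaving out 1 replicate gave 178 to 5972 called genes for hypertrophic-like against growth plate-like cells (2940 with all libraries), 681 to 8114 for superficial cartilage-like (4234), 0 to 5717 for Wnt-active (1557), 1365 to 7213 for osteoblast-like (5639), 1075 to 3823 for CAR-like against osteoblast-like (3316), 57 to 1057 for tendon-like against fibroblast-like (673) and 266 to 4297 for cycling cells (1124). Of these settings, the lowest counts came without replicate 2 or 3 and the highest without replicate 1. Leaving out replicate 2 or 3 leaves 1 growth plate-like sum. The same order was seen for CAR-like against osteoblast-like and tendon-like against fibroblast-like cells, which involve no growth plate-like sum. At an unadjusted p under 0.05, edgeR still had 1102 genes for Wnt-active cells without replicate 3. With Leiden clusters 6914 genes were called for superficial cartilage-like, 4259 for Wnt-active, 1442 for tendon-like and 2115 for cycling cells. For Wnt-active cells DESeq2 called 2359, the stricter gate 2767 and the fit without the replicate block 841. The cause of these differences was not tested.

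Without the replicate block, which here is the library pairing, 5 calls of the 9 genes were lost (Fgfr1 in hypertrophic-like and Wnt-active, Fgf2 in superficial cartilage-like, Fgfrl1 in CAR-like and Fgfr3 in tendon-like cells), and the tendon-like count fell to 449 genes. A minimum of 10 in place of 20 cells per sum changed nothing.

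A called value changed sign in 2 cases, both with Leiden clusters in hypertrophic-like cells: Fgf7 (-1.28) and Spry1 (-0.27). The other sign changes were of values that were not called. In hypertrophic-like cells this was Fgf18 without replicate 3 (-0.038, up to 0.30 without replicate 1). In superficial cartilage-like cells it was Fgfr1 with DESeq2 (0.035), without the cell filter (0.033), without doublet removal (0.031), without replicate 2 (0.01) and without replicate 3 (0.13), and Fgf7 without replicate 2 (-0.037, up to 0.61 without replicate 3). In Wnt-active cells it was Fgf1 with RLE (0.048), DESeq2 (0.15), no replicate block (0.00067), without replicate 1 (0.02) and without replicate 2 (0.14, down to -0.22 without replicate 3), Fgf2 with RLE (0.0037), DESeq2 (0.038), without replicate 2 (0.058, down to -0.22 without replicate 3) and with Leiden clusters (0.21), and Fgf7 without replicate 2 (-0.29, up to 1.61 without replicate 3). In osteoblast-like cells it was Fgf1 without replicate 2 (0.36, down to -3.20 without replicate 3). In CAR-like cells it was Fgfr3 without the replicate block (-0.082), Fgf1 without replicate 1 (-0.71) and without replicate 2 (-0.12, up to 3.09 without replicate 3), and Fgf2 without the replicate block (-0.036), without replicate 1 (-0.62, up to 0.68 without replicate 3), without the cell filter (-0.24) and without doublet removal (-0.24). In tendon-like cells it was Fgfr1 without replicate 1 (-0.012, up to 0.29 without replicate 3), Fgfr2 with Leiden clusters (0.64) and Fgf7 with the stricter gate (-0.55).

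Osteoblast-like cells were shallow, with a median of 1915.5 UMIs per cell and 35 cells in replicate 1, as were Schwann-like cells (1781.5 UMIs). Values of Fgfr4, of Fgfr3 in tendon-like cells and of Fgf7 in osteoblast-like cells rest on few UMIs.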
